A study of Mus musculus with 8 samples.

Results

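The respiratory chain of the inner mitochondrial membrane draws its proteins from 2 genomes. The mitochondrial genome encodes 13 of them, and all the others are encoded in the nucleus, translated in the cytosol and imported. The genes described here are the 13 mitochondrial mRNAs and 38 nuclear genes for subunits of complexes I, II, III and IV. They were chosen by name, with earlier results of these data known, and together they are 51 of the 27179 genes counted. Of the nuclear genes 22 belong to complex I (NADH dehydrogenase), 4 to complex II (succinate dehydrogenase), 6 to complex III (the cytochrome bc1 complex) and 6 to complex IV (cytochrome c oxidase). The question was whether the nuclear subunits followed the mitochondrial mRNAs from library to library, and whether either group differed between genotypes.

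RNA came from the whole spine of mouse embryos at E18.5, late gestation. There were 4 groups of 2 libraries: male WT, female WT, male KO and female KO. WT is wild type and KO is the knockout that the labels call Pax1-Enh, a deleted genomic region at Pax1. Pax1, a transcription factor gene of the developing vertebral column, lay between 16.8 and 30.4 CPM in the 8 libraries, with overlap between genotypes, so it does not check the labels. CPM is the usual depth-scaled read count, here with TMM library sizes. Labels give no strain and no parentage, and they do not say that replicates were separate embryos, so a p-value here measures the spread between these samples, which may be technical.

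As background, transcription of the mitochondrial genome starts from a few promoters and yields long precursors that are cut into separate RNAs, so neighbouring mRNAs begin from shared transcripts. Nuclear subunit genes are known to be activated by nuclear respiratory factors and their coactivators. Tissues with high respiration, such as brown fat, heart and muscle, are known to hold more of both sets.

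Library totals ran from 35181518 to 67575728 counts, and all 4 KO libraries were deeper than all 4 WT libraries, so depth and genotype cannot be told apart. The libraries also differed in the tissue they held. The 7 brown fat markers summed to 990 CPM in male WT 1 and 1962 CPM in female WT 2, against 187 and 205 CPM in the other WT libraries and 95.5 to 158 CPM in the KO libraries. Ucp1, the uncoupling protein of brown fat, read 416 and 890 CPM in male WT 1 and female WT 2, 48.9 and 31.9 CPM in the other WT libraries, and 1.45 to 10.3 CPM in KO. The 5 pancreas markers summed to 1080 CPM in female WT 1 and to at most 4.41 CPM elsewhere, and the 5 liver markers ranged from 29.5 to 1003 CPM. Cartilage markers, which define the labelled tissue, were at 5113 to 11351.5 CPM in sum in WT and 10527 to 26850 CPM in KO. They were highest in male KO 1 (26850 CPM) and female KO 2 (18228 CPM).

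Before any value of the mitochondrial mRNAs can be read, their sequence has to be considered. A run of 7 annotated pseudogenes on mouse chromosome 1 (24611535 to 24616197, GENCODE M21 annotation of GRCm38, the mm10 build) copies bases 6390 to 11042 of the mitochondrial genome, a stretch of 4653 bases. The mRNAs of mt-Co2, mt-Atp6, mt-Co3, mt-Nd3 and mt-Nd4l lie inside it, with identity of 99.7% to 100% to a pseudogene transcript. mt-Atp8 also lies inside it, at a place where no transcript is annotated on chromosome 1, and its best match among annotated transcripts had 81.4% identity. mt-Nd4 has 63.6% of its bases inside and mt-Co1 31.3%. The other 5 mRNAs, mt-Nd1, mt-Nd2, mt-Nd5, mt-Nd6 and mt-Cytb, lie outside, and their best matches among nuclear transcripts had 76.6% to 96.7% identity. The 60 bases from position 301 of the mRNA are shown for 1 gene of each kind, because a read from the first would match both places and a read from the second only one. For mt-Co3 and its copy Gm28437 the letters are the same throughout; for mt-Cytb and its best copy Gm11410 (chromosome 4, identity 92.9%) capitals mark the differences.
mt-Co3: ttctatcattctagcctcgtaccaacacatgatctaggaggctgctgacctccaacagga
Gm28437: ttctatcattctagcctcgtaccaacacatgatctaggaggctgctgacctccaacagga
mt-Cytb: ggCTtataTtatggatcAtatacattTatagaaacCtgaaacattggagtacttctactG
Gm11410: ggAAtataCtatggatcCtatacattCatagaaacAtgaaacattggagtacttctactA
Counted from 1 at the start of the mRNA, the mt-Cytb differences are C303A, T304A, T309C, A318C, T327C, C336A and G360A, with the letter of the mRNA first.

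Counts followed this division. The 6 mRNAs mostly outside the stretch (mt-Nd1, mt-Nd2, mt-Co1, mt-Nd5, mt-Nd6 and mt-Cytb) had 53675 to 3003728 counts in a library, and mt-Nd4 had 163869 to 1009884. The other 6 (mt-Co2, mt-Atp8, mt-Atp6, mt-Co3, mt-Nd3 and mt-Nd4l) had 1 to 7901 counts. Per length, in TPM (the CPM-like level per exon length, computed from the counts), median levels were 8165 to 42061 for the first 6 and 1.79 to 123 for the last 6. The sources used here do not say how reads matching more than 1 place were counted, and the pseudogenes were not matched to any row of the table, so the part of the copy in these low counts was not tested. The 7 mRNAs with high counts held 99.7% to 99.9% of all mitochondrial mRNA counts. Levels of the other 6 are therefore described as what was counted, not as the abundance of those mRNAs.

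**Figure D1:**
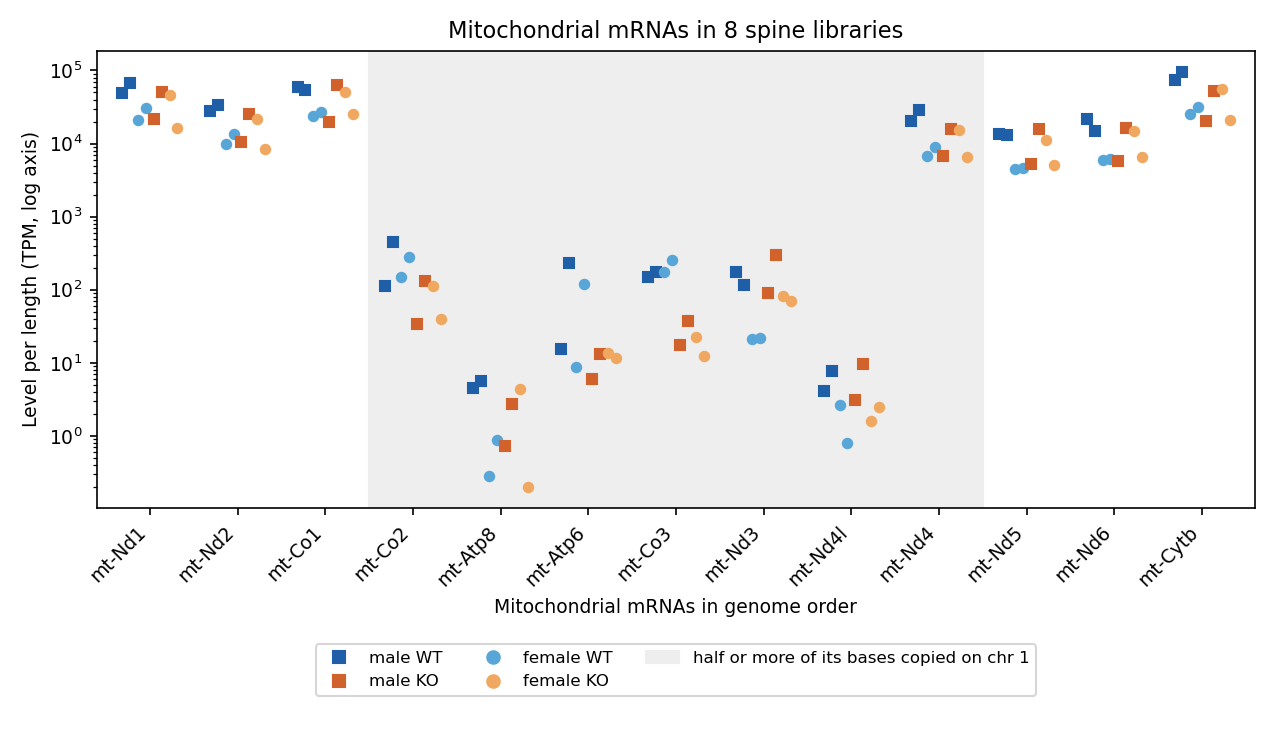
Level per length (TPM, log axis) of each mitochondrial mRNA, in genome order, in 8 libraries; squares are males, circles females, blue WT and orange KO, and the grey band marks mRNAs mostly inside the stretch copied on chromosome 1. The mRNAs in the band apart from mt-Nd4 had median levels of 1.79 to 123, against 8165 to 42061 for the 6 outside it.

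Mitochondrial mRNAs varied widely between libraries of the same group. They took 17.5% and 19.6% of all counts (male WT), 5.29% and 7.01% (female WT), 4.34% and 15.0% (male KO) and 13.2% and 4.51% (female KO). Male WT 2 had the largest share and male KO 1 the smallest, and each KO group held 1 high and 1 low library. mt-Co1, the catalytic core of complex IV, read 59816 and 48480 CPM (male WT) and 14488 and 19737 CPM (female WT). In KO the males read 10912 and 55900 CPM and the females 43164 and 13853 CPM, so both genotypes held high and low libraries. mt-Cytb, the mitochondrial subunit of complex III, had the highest median TPM of the 13 and read 54960 and 64458 CPM (male WT), 11666 and 16914 (female WT), 8375 and 34387 (male KO) and 35071 and 8400 (female KO). mt-Nd1 and mt-Nd5, membrane subunits of complex I, spanned 5491 to 37490 CPM and 3224 to 16311 CPM. mt-Nd6, the only one of the 13 encoded on the other strand, spanned 1062 to 7179 CPM. The 6 mRNAs outside the copied stretch moved together, with pairwise correlations over the 8 libraries of 0.94 to 0.99 (median 0.96, a description over libraries that share their scaling). The 2 mitochondrial ribosomal RNAs, mt-Rnr1 and mt-Rnr2, which are not among the 51 genes, had a mean that correlated with the mean of the 13 mRNAs at 0.97.

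Summed counts of the nuclear subunits were 1.07% and 0.716% of a library (male WT), 0.771% and 1.53% (female WT), 0.590% and 0.730% (male KO) and 0.681% and 0.617% (female KO). Female WT 2 and male WT 1 stood above the other 6. Mitochondrial mRNA counts exceeded nuclear subunit counts 4.58-fold in female WT 2 and 27.3-fold in male WT 2. Sdhd, the membrane anchor of complex II, had 0 to 5 counts in every library and was not tested; the reason was not tested. For the other 37 nuclear genes median TPM ran from 18.9 for Ndufa8 to 1522 for Uqcrb. Within complex IV, Cox6b1 (1202) and Cox4i1 (1197) had the highest median TPM. Within complex II, Sdhb, the iron-sulfur subunit, stood at 419, Sdha, the flavoprotein, at 288 and Sdhc, the other membrane anchor, at 103. Parts of Cox5b, Cox7c and Ndufa12 have near-identical copies elsewhere (99.2% to 100% identity over 119 to 402 bases), so their counts are uncertain.

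Across libraries the nuclear subunits followed the mitochondrial mRNAs only in part. The mean log2 CPM of the 13 mitochondrial mRNAs, relative to its mean over 8 libraries, was 1.11 and 1.54 (male WT), -0.90 and -0.16 (female WT), -1.30 and 0.80 (male KO) and 0.31 and -1.39 (female KO). The same mean over the 37 nuclear subunits was 0.63 and -0.13 (male WT), -0.19 and 0.90 (female WT), -0.59 and -0.05 (male KO) and -0.06 and -0.51 (female KO). The lowest pair of libraries, male KO 1 and female KO 2, was the same for both sets. At the other end they parted. Male WT 2 had the highest level of the 13 mRNAs, with a nuclear level just under the mean. Female WT 2 had the highest nuclear level, with a level of the 13 mRNAs just under the mean. Over the 6 mRNAs mostly outside the copied stretch, male WT 1 was highest (1.21), followed by male WT 2 (1.12). Female WT 2 stood at -0.49 on those 6. Pearson's r between the nuclear level and that of the 13 mRNAs was 0.48 and Spearman's rho 0.60 (n = 8, no p is given). Without female KO 2 and male WT 2, the libraries farthest from the median, r was 0.56. With plain library totals r was 0.18 and rho 0.33, and leaving out 1 library at a time r ran from 0.33 (without male KO 1) to 0.73 (without female WT 2). Against the 6 mRNAs outside the copied stretch r was 0.41 and rho 0.67, but r was -0.08 without male KO 1 and female KO 2, so that relation rests on those 2 libraries, and with plain totals r was 0.068. By complex, r with the 13 mRNAs was 0.53 for complex I, 0.14 for complex II, which has no mitochondrial subunit, 0.40 for complex III and 0.52 for complex IV.

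The libraries high in brown fat markers were the ones that stood apart. Of the 37 nuclear subunits, 25 had male WT 1 and female WT 2 as their 2 highest libraries, and 24 were highest in female WT 2. The share of all tested genes with either order was not computed, so these counts do not set the subunits apart. The nuclear level correlated with the mean of 5 brown fat markers (Ucp1, Cidea, Dio2, Elovl3 and Otop1) at r = 0.76 (rho 0.38, n = 8), and at -0.20 without male WT 1 and female WT 2, so that relation rests on those 2 libraries. The mitochondrial level correlated with the same markers at 0.12. Without these 2 libraries (an alternative added after seeing the data) the r between the nuclear and the mitochondrial level was 0.80 over the other 6.

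**Figure D2:**
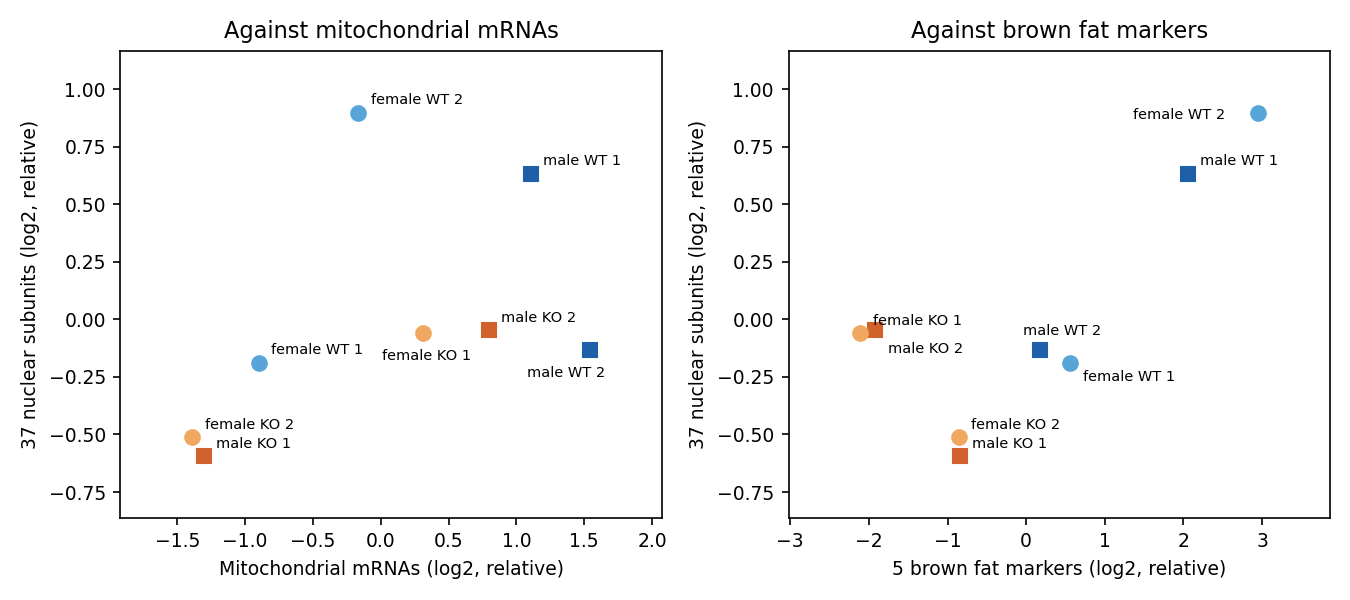
Mean log2 CPM of 37 nuclear subunits in each of 8 libraries, relative to the mean of all, against that of the 13 mitochondrial mRNAs (left) and of 5 brown fat markers (right); squares are males, circles females, blue WT and orange KO. Female WT 2 (0.90) and male WT 1 (0.63) sit above the other libraries on the vertical axis in both panels and are the 2 farthest right in the panel of brown fat markers, while in the other panel male WT 2 (1.54) is farthest right, followed by male WT 1 (1.11).

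The subunits differed in which of these patterns they showed. A test asked which genes changed with the mitochondrial level: an edgeR quasi-likelihood fit over all 18104 genes, in which the slope is a gene's log2 change per log2 unit of the mean of the 13 mRNAs, with Benjamini-Hochberg adjustment and a threshold of 0.05. In it 6 of 37 nuclear subunits, or 16.2%, passed, all with positive slopes, against 8.04% of all nuclear genes with positive and 3.78% with negative slopes. The direction over all genes depends on scaling: with TMM 1455 nuclear genes had positive and 683 negative slopes, and with plain library totals 847 and 3961, where the median slope of all nuclear genes was -0.17 in place of -0.0060. The median slope of the 37 subunits was 0.19 with TMM and 0.025 with plain totals. The 6 were Ndufs4, Ndufa5, Ndufv2 and Ndufa1 of complex I, Uqcrb of complex III and Cox6c of complex IV. None of the 3 tested subunits of complex II passed in edgeR, at an unadjusted p under 0.05, in DESeq2 or in limma voom.

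Ndufs4, a subunit needed for complex I assembly, read 450 and 409 CPM (male WT), 134 and 216 (female WT), 102 and 365 (male KO) and 224 and 106 (female KO). Its order of libraries nearly matched that of the mitochondrial mRNAs (rho 0.95), with a slope of 0.76 (SE 0.08, adjusted p = 0.00148). Uqcrb, which lies at the ubiquinone site of complex III, read 1106 and 872 CPM (male WT), 210 and 449 (female WT), 140 and 454 (male KO) and 465 and 142 (female KO). Its slope of 0.98 (SE 0.12, adjusted p = 0.0024) was the steepest among the nuclear subunits, close to 1 log2 unit per unit. Ndufa5, an accessory subunit of complex I, read 543 and 336 CPM (male WT), 97.9 and 161 (female WT), 80.9 and 254 (male KO) and 264 and 92.0 (female KO), with a slope of 0.87 (SE 0.12, adjusted p = 0.00333). In Ndufv2, a core iron-sulfur subunit of complex I, the slope was 0.69 (SE 0.12, adjusted p = 0.0104), in Cox6c 0.69 (SE 0.13, adjusted p = 0.0123) and in Ndufa1 0.47 (SE 0.11, adjusted p = 0.0305). Without male KO 1 the count of subunits passing fell from 6 to 3 (Ndufs4, Ndufa5 and Uqcrb), without female WT 2 it was 11, and by DESeq2 it was 10. Cox6c did not pass with sex and genotype as terms, and Ndufa1 did not pass with plain library totals or with the replicate block. Ndufa1 also failed to pass when male WT 1, female WT 1, male KO 1, female KO 1 or female KO 2 was left out.

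Other subunits of the same complexes showed no such slope. Ndufv1, the flavin-binding subunit of complex I, partner of Ndufv2, read 182 and 95.3 CPM (male WT), 163 and 422 (female WT), 166 and 103 (male KO) and 97.8 and 118 (female KO). Its r with the mitochondrial level was the lowest of the 37, at -0.25, and its r with the brown fat markers was 0.83. Uqcrc1, a core protein of complex III, read 378 and 172 CPM (male WT), 343 and 898 (female WT), 312 and 184 (male KO) and 204 and 219 (female KO) (r = -0.24 with the mitochondrial level). Ndufs7 of complex I (-0.17), Cox4i1 of complex IV (-0.10) and Sdhc (-0.10) completed the lowest 5. Over all 37, r ran from -0.25 to 0.98 with a median of 0.33; it was above 0.8 for 6, within 0.3 of 0 for 18 and negative for 8. With the brown fat markers it ran from 0.17 to 0.87 with a median of 0.79 and was above 0.8 for 18. How many of all tested genes reach such an r with either reference was not computed. The 6 subunits above 0.8 with the mitochondrial mRNAs had 0.17 to 0.37 with the markers. The 18 above 0.8 with the markers had -0.25 to 0.42 with the mitochondrial mRNAs. Those 2 references correlated at only 0.12, so a high r with 1 limits the r with the other, and this split is partly arithmetic. For the mean of the 37, r with the markers was -0.20 without male WT 1 and female WT 2.

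**Figure D3:**
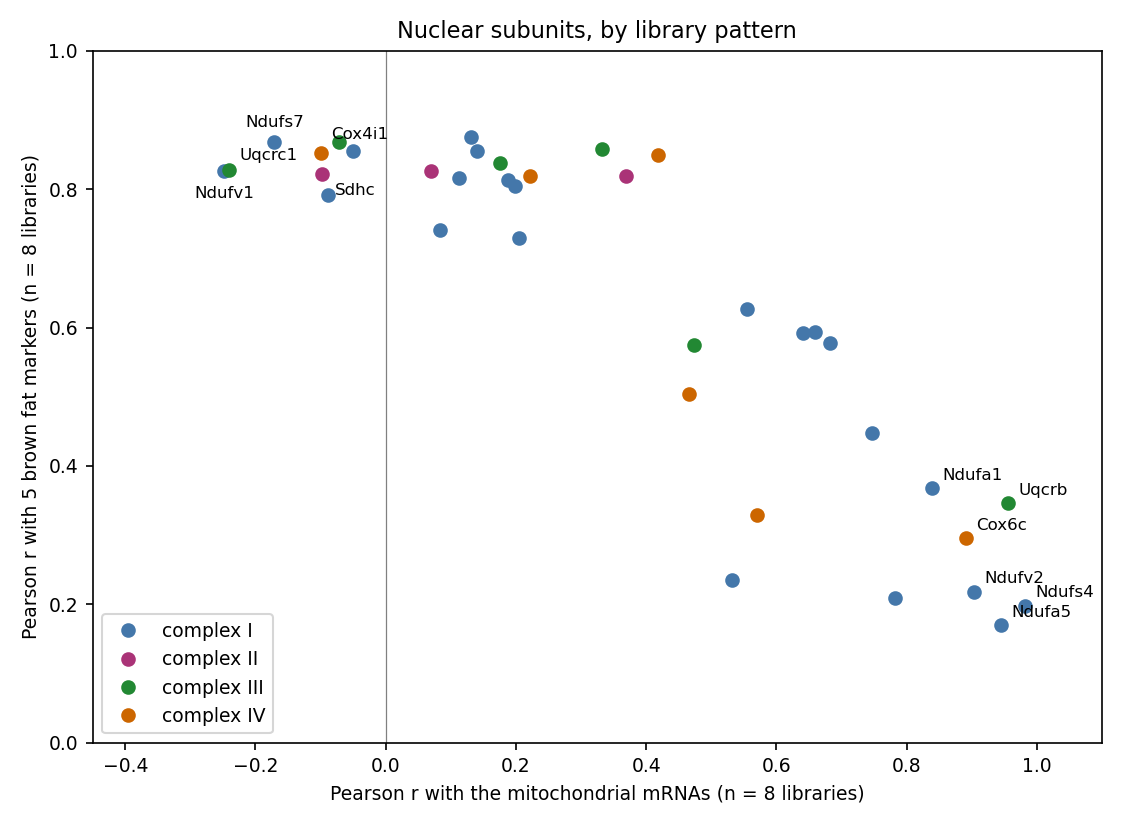
Each point is 1 of 37 nuclear subunits, coloured by complex, placed by its Pearson r over 8 libraries with the mitochondrial mRNA level (horizontal) and with 5 brown fat markers (vertical). The labelled 6 at the lower right had r above 0.8 with the mitochondrial mRNAs, and the 5 with the lowest r lie at the upper left.

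Base composition moved with this division. The 13 mitochondrial mRNAs had a GC content of 31.9% to 41.1%. GC content of the longest coding transcript was 42.0% to 50.3% in the 6 subunits that followed them (median 45.1%) and had a median of 51.7% in the other 31. Across the 37 genes, which are not independent replicates, GC content and slope correlated at r = -0.58, and across the 15985 nuclear genes with a coding transcript at r = -0.51. Of 6358 nuclear genes in the same GC range 9.06% passed with a positive slope, and of the 18 subunits in that range, whose bounds those 6 set, 33.3% did. In other lists, beside the same 8.04% of all nuclear genes, the members that passed in edgeR with positive slopes were 8 of 32 cytosolic ribosomal proteins, 5 of 15 ATP synthase genes, 5 of 22 further respiratory subunits, 7 of 20 genes of mitochondrial genome expression, 4 of 30 mitochondrial ribosomal proteins, 3 of 28 assembly factors, 2 of 24 membrane and import genes, 1 of 24 matrix enzymes, 1 of 10 biogenesis regulators and 0 of 5 tissue isoforms. None of these lists had a member that passed with a negative slope. Among the cell markers, 3 of 7 cartilage markers (median slope -0.47) and 1 of 6 bone markers passed with negative slopes, beside 3.78% of all nuclear genes. No marker list had a member that passed with a positive slope. The mean of the cytosolic ribosomal proteins, which work outside mitochondria, correlated with the mitochondrial level at r = 0.78 (rho 0.74, and 0.79 without the 2 farthest libraries), and at r = 0.51 with plain totals. The part of base composition, tissue makeup and RNA quality in these slopes was not tested.

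Between genotypes, the edgeR fit called 0 of 18104 genes in males, in females, over both sexes and in the difference between the sexes, which is a background of 0% in each. At an unadjusted p under 0.05 the counts were 2705, 1672, 1234 and 3037. DESeq2 called 487, 144, 141 and 361 genes, and limma voom 0 in each. Among the 51 genes DESeq2 called mt-Co3 alone, in each sex and over both. What follows therefore gives values and their spread.

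mt-Co3, a core subunit of complex IV, was the only mitochondrial mRNA with all 4 KO libraries below all 4 WT libraries (1 of 13, background 1.45% of genes). It read 74.7 and 80.3 CPM (male WT) and 54.1 and 92.6 CPM (female WT), against 4.95 and 16.7 CPM (male KO) and 10 and 3.46 CPM (female KO). The log2 fold change was -2.84 (males, SE 0.64), -3.45 (females, SE 0.66) and -3.14 (both sexes, SE 0.46), with an adjusted p of 0.454 over both in edgeR and 3.00e-09 in DESeq2. Relative to mt-Co1 in the same library, mt-Co3 had 12.5 to 46.9 counts per 10000 in WT and 2.32 to 4.53 in KO. Among its neighbours, mt-Nd3 had a male log2 fold change of 0.15 (SE 0.64) and a female one of 1.91 (SE 0.68). In females both KO libraries were above both WT libraries for mt-Nd3 (15.9 and 8.72 against 2.96 and 3.60 CPM). The background of genes in that order was not computed. mt-Atp6, directly upstream, was high only in male WT 2 and female WT 2 (91.8 and 38 CPM) and at 1.47 to 6.89 CPM in the other 6 libraries, with a log2 fold change over both sexes of -3.12 (SE 1.00, edgeR adjusted p = 0.657). mt-Co2 read 41.0 to 180 CPM in WT and 8.22 to 51.7 CPM in KO, with overlap and a log2 fold change over both sexes of -1.61 (SE 0.68, edgeR adjusted p = 0.721). All 4 lie wholly in the copied stretch, and the part that the assignment of reads had in these values was not tested. mt-Nd4l and mt-Atp8, at 1 to 88 counts, are too low to describe.

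For the 6 mRNAs outside the copied stretch the sexes pointed in opposite directions, without passing the test. Their median log2 fold change was -0.95 (males), 0.67 (females) and -0.11 (both), and 1.62 for female minus male, where the smallest adjusted p was 0.385. In males 3 of 6 had both KO libraries below both WT libraries, against a background of 22.7% of genes, and in females 0 of 6 did, against 26%. Without female KO 1 the female median was -0.53, and without male KO 1 the male median was -0.24, and without male KO 2 it was -2.32, so the female direction rests on female KO 1 and the male size on which KO library is kept.

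All 37 tested nuclear subunits had a fold change below 0 over both sexes, against 8960 of 18104 genes, and none passed in edgeR or limma voom. Their median log2 fold change was -0.62 over both sexes, -0.52 in males and -0.79 in females, while that of all genes was 0.00, -0.04 and 0.03. At an unadjusted p under 0.05, 14 of 37 were lower over both sexes (background 3.73%), 2 in males (background 6.83%) and 14 in females (background 4.64%), and none was higher. The 37 subunits moved together, with a median pairwise correlation over the libraries of 0.77 (-0.19 to 0.99), so these counts are not of independent genes. Both KO libraries were below both WT libraries for 13 of 37 in males (background 22.7%) and 18 of 37 in females (background 26%). All 4 KO libraries were below all 4 WT libraries for 1 of 37 (background 1.45%). That gene was Uqcrq, a small subunit of complex III, at 198 and 170 CPM (male WT), 190 and 418 (female WT), 104 and 119 (male KO) and 155 and 133 (female KO). Its log2 fold change over both sexes was -0.90 (SE 0.26, edgeR adjusted p = 0.63).

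**Figure D4:**
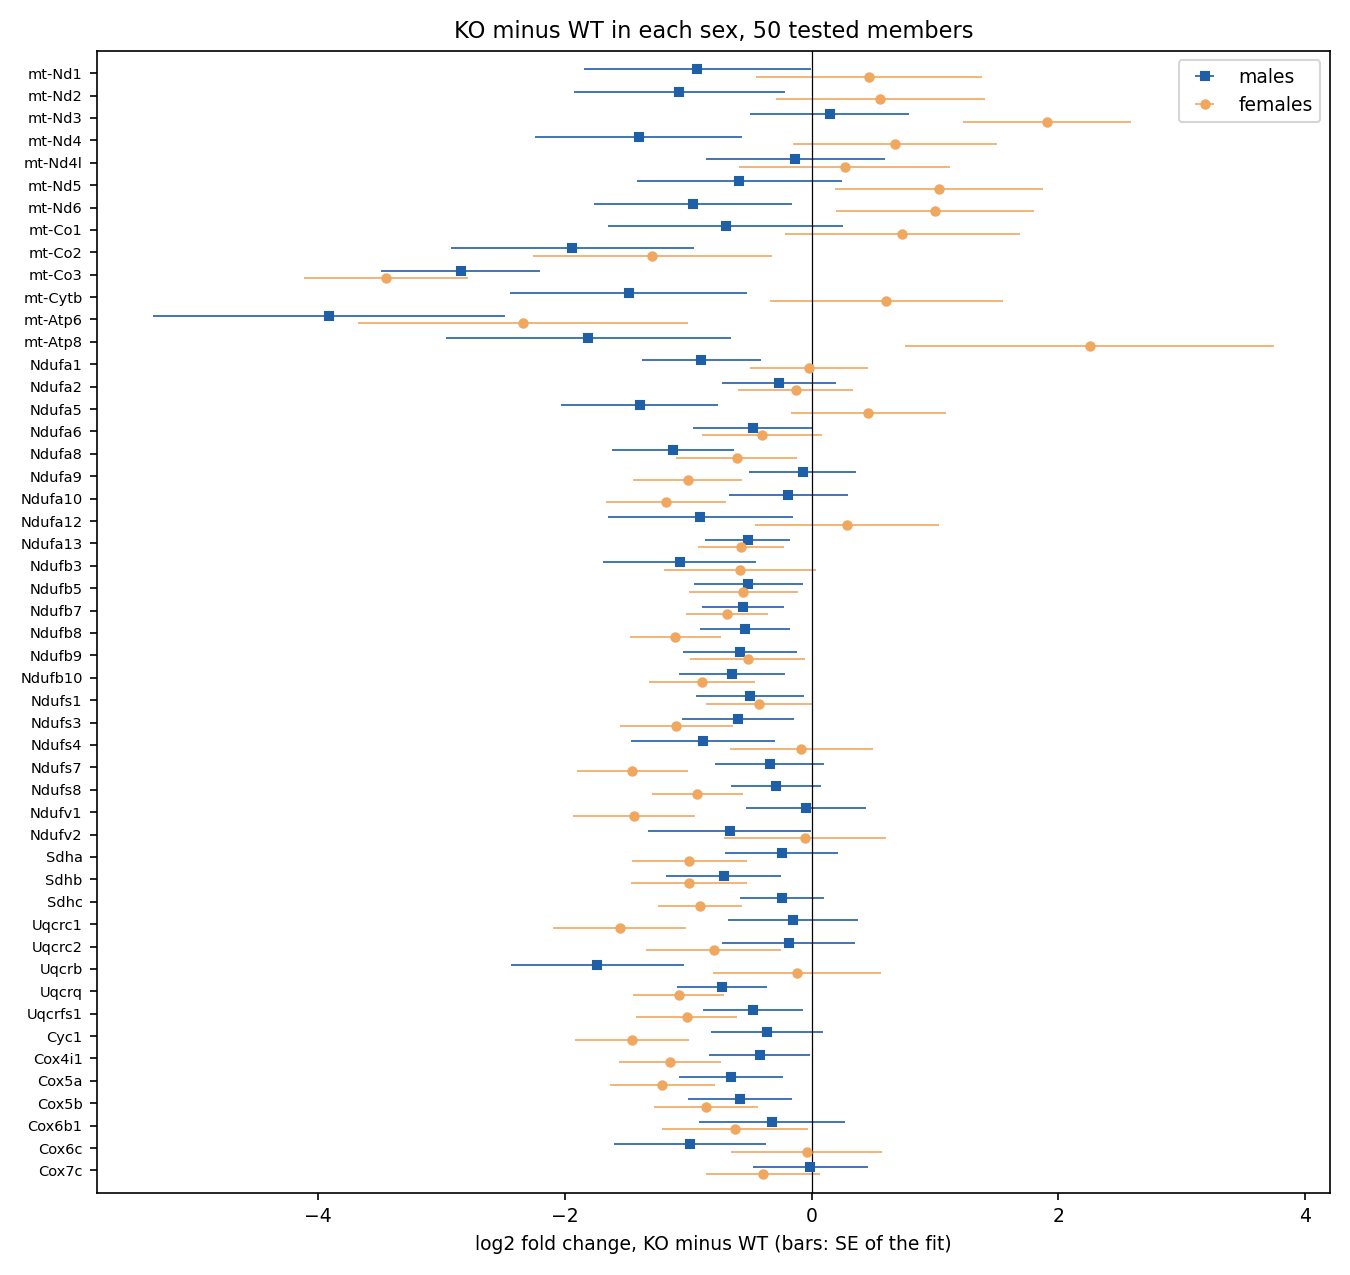
Log2 fold change, KO minus WT, of the 50 tested genes in males (blue squares) and females (orange circles), with bars of 1 SE of the edgeR fit. Nuclear subunits lie mostly to the left of 0 in both sexes (medians -0.52 and -0.79), the mitochondrial mRNAs outside the copied stretch on opposite sides (medians -0.95 and 0.67), and mt-Co3 far to the left in both.

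By complex the median over both sexes was -0.55 for complex I, -0.62 for complex II, -0.88 for complex III and -0.61 for complex IV. In complex I the smallest p belonged to Ndufb8, Ndufb7 and Ndufs3. Ndufb8, a membrane-arm subunit, read 209 and 152 CPM (male WT), 216 and 459 (female WT), 130 and 118 (male KO) and 158 and 156 (female KO), with a fold change of -0.82 (SE 0.27, edgeR adjusted p = 0.657). Its highest value was in female WT 2, and the genotypes overlapped between male WT 2 and female KO. In complex II the fold changes were -0.85 (SE 0.32) for Sdhb, -0.57 (SE 0.26) for Sdhc and -0.62 (SE 0.34) for Sdha. In complex III those of Cyc1, the cytochrome c1 that passes electrons to cytochrome c, and of Uqcrfs1, the Rieske iron-sulfur protein, were -0.91 (SE 0.37) and -0.74 (SE 0.29). Cyc1 read 375 and 228 CPM (male WT), 351 and 915 (female WT), 256 and 214 (male KO) and 231 in each female KO library. In complex IV those of Cox5a, Cox4i1 and Cox5b were -0.93 (SE 0.30), -0.79 (SE 0.31) and -0.72 (SE 0.29).

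Fat markers were lower in KO as well. Of the 7 brown fat markers 6 were lower in KO, and 3 had all KO below all WT libraries (background 1.45%). None was at 0 in every library. Within KO the order differed. The relative log2 level of 5 brown fat markers was -0.85 and -1.92 (male KO) and -2.11 and -0.86 (female KO). That of the nuclear subunits was -0.59 and -0.05 (male KO) and -0.06 and -0.51 (female KO). Of 8 general adipocyte markers 8 were lower and 4 had all KO below all WT libraries (background 1.45%); their sum was 960 to 5645 CPM in WT and 497 to 1155 CPM in KO. Male WT 1 and female WT 2 were the 2 highest libraries for 25 subunits, so leaving them out had to bring KO and WT closer and tests no cause. Without them, with 1 WT library left in each sex, the nuclear median was -0.12 over both sexes, -0.08 in males and -0.15 in females. Over both sexes Sdha, Ndufv2 and Cox6c changed sign (0.057, 0.12 and 0.0019). Skeletal muscle is another tissue rich in mitochondria, and 12 of its 12 markers had fold changes above 0 over both sexes, though none passed in edgeR. All 7 cartilage markers and all 6 bone markers were above 0 as well, and none passed. Of 5 heart muscle markers 4 were below 0. Transcript length also moved with the values: nuclear genes within the subunits' interquartile length of 763 to 1698 bases (2525 genes) had a median of -0.17 over both sexes. Other lists had medians below 0 over both sexes as well, with 0 members called by edgeR in each. These medians were -0.94 for 24 matrix enzymes, -0.64 for 5 tissue isoforms, -0.55 for 22 further respiratory subunits, -0.45 for 30 mitochondrial ribosomal proteins, -0.43 for 28 assembly factors, -0.43 for 24 membrane and import genes, -0.40 for 15 ATP synthase genes, -0.17 for 20 genes of mitochondrial genome expression and -0.012 for 10 biogenesis regulators, and -0.16 for 32 cytosolic ribosomal proteins, which are not mitochondrial. In the matrix list Etfa and Acadm, of fatty acid oxidation, had the smallest p: Etfa read 459 and 265 CPM (male WT), 160 and 718 (female WT) and 99.3 to 130 CPM in KO (log2 fold change -1.84, SE 0.42, edgeR adjusted p = 0.511). Cox7a1, a complex IV isoform of muscle and brown fat, read 127 and 32.0 CPM (male WT), 40.8 and 231 (female WT) and 15.4 to 33.5 CPM in KO (-2.30, SE 0.62, adjusted p = 0.60). The coactivator Ppargc1b and the receptor Esrra, regulators of respiratory genes, had the smallest p of 10 biogenesis regulators, with fold changes of -0.68 (SE 0.44) and -0.70 (SE 0.33); 4 of the 10 were above 0, and none had an unadjusted p under 0.05. In bulk tissue, fewer cells of a type and less RNA per cell cannot be told apart.

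Promoters were examined for the 28 of 38 nuclear subunits listed in the set of RefSeq promoters used here (GRCm38.p6). The 250 bases before the start were searched on either strand, in the first promoter listed for each gene. The NRF-1 consensus motif was in 4 of 28 (14.3%) and in 3.86% of 27025 promoters of that length. The ETS motif CCGGAAG, bound by GABP, was in 14.3% and 7.05%, the Sp1 motif GGGCGG in 39.3% and 32.9%, the YY1 motif AAGATGGC in 0 of 28 and 1.59%, and the estrogen-related receptor motif TCAAGGTCA in 0 of 28 and 0.366%. With the first 50 bases after the start added, the shares were 21.4% and 4.78% for NRF-1, 21.4% and 9.12% for ETS, 46.4% and 35.9% for Sp1, 14.3% and 2.88% for YY1, and 3.57% and 0.407% for the receptor motif, so the YY1 matches depend on the window. Of the 6 subunits that followed the mitochondrial level, 4 were in the promoter set. The 250 bases upstream of 2 complex II genes are shown, as the one with the most NRF-1 matches (Sdha, 3) and the one with both an NRF-1 and an ETS match (Sdhd), with matches in capitals. Sdha is at chr13:74350241-74350490 and Sdhd at chr9:50603850-50604099, both on the minus strand.
Sdha: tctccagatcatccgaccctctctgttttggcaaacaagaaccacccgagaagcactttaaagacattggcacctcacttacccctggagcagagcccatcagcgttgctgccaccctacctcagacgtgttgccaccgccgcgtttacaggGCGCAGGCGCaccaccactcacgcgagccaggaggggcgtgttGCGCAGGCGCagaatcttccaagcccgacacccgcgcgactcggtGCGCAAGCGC
Sdhd: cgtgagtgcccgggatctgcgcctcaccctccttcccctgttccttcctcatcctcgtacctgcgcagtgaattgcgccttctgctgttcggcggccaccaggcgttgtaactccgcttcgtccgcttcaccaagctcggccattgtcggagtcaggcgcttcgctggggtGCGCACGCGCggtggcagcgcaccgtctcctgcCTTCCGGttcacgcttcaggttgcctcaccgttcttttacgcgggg
A match is a description of letters: Sdha read 276 to 827 CPM and Sdhd had at most 5 counts, and none of the 3 tested complex II genes followed the mitochondrial level.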

How the data were processed

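Whole-number read counts per gene were deposited by the authors, 1 column per library. Per the submitters' processing notes, FastQC 1.0.0, MultiQC 1.0.0, HISAT2, featureCounts and mm10 were used; the sources used here do not give the annotation, the strand setting or the treatment of reads with several matches. Per the labels' protocols, TRIzol extraction preceded a TruSeq Stranded mRNA library kit. Symbols came from RefSeq for 25275 of 27179 genes.

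Counts were tested with edgeR 4.0.16 (R 4.3.3): a minimum count of 10 in filterByExpr left 18104 genes, scaling was by TMM, and p-values were adjusted over all genes. Sex and genotype entered as 4 group means, as additive terms for both sexes, or were left out for the mitochondrial level (prior count 2). DESeq2 1.42.0 and limma 3.58.1 voom were alternatives. The biological coefficient of variation was 27.75%. On simulated data of 17990 genes, the test over both sexes recovered 31.1% of changes of log2 size 1 and 100% of size 2. A test of the slope recovered 100% of size 1. The simulation gave every gene the same spread and the libraries no differences in tissue, so these shares do not hold for the real data. There mt-Co3, with a log2 fold change of -3.14 over both sexes, was not called by edgeR. Copies of mitochondrial mRNAs were sought with blastn 2.17.0 in annotated transcripts, not in a genome, with at least 100 bases and 99% identity called near-identical.

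Members and lists were chosen with earlier results of these data known. Named genes were all mitochondrial mRNAs, in each complex the 3 subunits with the smallest p over both sexes and the 1 with the highest mean count, the 5 with the highest and the 5 with the lowest correlation with the mitochondrial level, members past a threshold, the 2 genes of each other list with the smallest p, and leading markers; other genes were named after their values were seen. Chosen after seeing the data were the split by the copied stretch, the 5 brown fat markers (Cox8b and Ppargc1a were left out as mitochondrial genes), the ratio to mt-Co1, the GC and length values, the wider promoter window, the crossed block and leaving out male WT 1 and female WT 2. Correlations within a genotype, with 4 libraries, are not given.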

Additional observations from a re-analysis of the deposited data

How the results depend on the processing

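All values are log2 fold changes, or slopes where stated. Numbers of genes are over all tested genes, and for the slope over nuclear genes. The cause of the changes below was not tested. DESeq2 called 487 genes in males, 144 in females, 361 for the difference between sexes, 141 over both sexes and 3622 for the slope, against 0 in each of the first 4 and 2138 in edgeR; it called 1 member in males, in females and over both sexes and 10 nuclear subunits for the slope. Without a filter on low counts edgeR called 39 genes in males and 1 for the difference; with plain totals, 1 for the difference and 4808 for the slope; with the replicate block, 1030 for the slope; with sex and genotype as terms, 1136. With replicate numbers crossed in females it called 2 genes there. Without male WT 1 and female WT 2 it called 25 genes in females and 1 for the difference, the female median of the nuclear subunits was -0.15, and the r between levels was 0.80.

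Leaving out 1 library at a time, the female medians ran from -0.76 to 1.30 for the 13 mitochondrial mRNAs, from -0.53 to 1.32 for the 6 outside the copied stretch and from -1.31 to -0.14 for the nuclear subunits, with 0 to 33 genes called. The male medians ran from -2.45 to -0.39 for the 13, from -2.32 to -0.24 for the 6 and, for nuclear subunits, from -0.82 (without male KO 2) to -0.12 (without male WT 1). For the difference they ran from 0.39 to 3.05, from 0.44 to 3.09 and, for nuclear subunits, from -0.75 to 0.35, with 0 to 10 genes called. Over both sexes they ran from -0.95 to 0.19 for the 13 and from -0.80 to 0.33 for the 6, lowest without female KO 1 and highest without male KO 1, and for nuclear subunits from -0.79 (without male WT 2) to -0.36 (without female WT 2). For the slope 392 to 2942 genes and 3 to 11 nuclear subunits passed.

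The 13 mitochondrial mRNAs and the named nuclear subunits were recomputed under every setting in each sex, over both sexes and, for the nuclear ones, for the slope. Leaving out 1 library at a time, values in males ran from -0.68 to 0.042 for Cyc1, from -0.71 to 0.16 for Ndufs7, from -0.44 to 0.49 for Ndufv1, from -0.64 to 0.30 for Sdha, from -0.61 to 0.53 for Uqcrc1, from -2.31 to 0.062 for mt-Co1, from -1.50 to 0.91 for mt-Nd3, from -1.69 to 0.64 for mt-Nd4l and from -2.11 to 0.16 for mt-Nd5. Leaving out 1 library at a time, values in females ran from -0.83 to 0.47 for Cox6c, from -0.56 to 0.51 for Ndufa1, from -0.49 to 1.03 for Ndufa5, from -0.72 to 0.36 for Ndufs4, from -0.88 to 0.48 for Ndufv2, from -1.22 to 0.54 for Uqcrb, from -3.26 to 0.73 for mt-Atp6, from -1.66 to 3.35 for mt-Atp8, from -0.30 to 1.34 for mt-Co1, from -0.77 to 1.30 for mt-Cytb, from -0.99 to 1.18 for mt-Nd1, from -0.76 to 1.24 for mt-Nd2, from -0.55 to 1.33 for mt-Nd4, from -0.27 to 1.22 for mt-Nd4l, from -0.10 to 1.66 for mt-Nd5 and from -0.19 to 1.64 for mt-Nd6. Leaving out 1 library at a time, values over both sexes ran from -1.78 to 0.62 for mt-Atp8, from -0.54 to 0.47 for mt-Co1, from -1.19 to 0.087 for mt-Cytb, from -0.95 to 0.19 for mt-Nd1, from -0.95 to 0.19 for mt-Nd2, from -1.05 to 0.15 for mt-Nd4, from -0.56 to 0.45 for mt-Nd4l, from -0.39 to 0.69 for mt-Nd5 and from -0.65 to 0.53 for mt-Nd6. Leaving out 1 library at a time, values for the slope on the mitochondrial level ran from -0.21 to 0.030 for Cox4i1, from -0.24 to 0.088 for Cyc1, from -0.054 to 0.16 for Ndufb7, from -0.19 to 0.054 for Ndufb8, from -0.033 to 0.27 for Ndufs3, from -0.29 to 0.035 for Ndufs7, from -0.053 to 0.20 for Sdha, from -0.15 to 0.031 for Sdhc, from -0.37 to 0.017 for Uqcrc1 and from -0.076 to 0.15 for Uqcrq. With limma voom the sign changed for mt-Nd3 (-0.27) in males and mt-Nd4l (-0.24), mt-Nd6 (-0.13) and mt-Co1 (-0.25) over both sexes. Without male WT 1 and female WT 2 the sign changed for Ndufs3 (0.033), Sdhc (0.0018), Sdha (0.35), Cyc1 (0.087), Ndufv1 (0.54), Uqcrc1 (0.57) and Ndufs7 (0.20) in males, mt-Nd4l (-0.28), mt-Atp6 (0.72), Ndufv2 (0.41), Uqcrb (0.53), Cox6c (0.38), Ndufs4 (0.30) and Ndufa1 (0.50) in females, mt-Nd4l (-0.36), Ndufv2 (0.12), Sdha (0.057) and Cox6c (0.0019) over both sexes and Ndufb7 (-0.013), Ndufs3 (-0.014) and Sdha (-0.045) for the slope on the mitochondrial level. With library sizes free of mitochondrial genes the sign changed for Ndufv1 (0.0052) in males. With plain totals the sign changed for Ndufv1 (0.20) and Uqcrc1 (0.11) in males, mt-Nd6 (-0.0042) and mt-Co1 (-0.0016) over both sexes and Ndufb7 (-0.12), Ndufs3 (-0.084), Sdha (-0.13), Uqcrq (-0.080) and Cox5b (-0.051) for the slope on the mitochondrial level. With the replicate block the sign changed for Ndufs4 (0.010) and Ndufa1 (0.020) in females and mt-Nd4l (-0.054) over both sexes. With DESeq2 the sign changed for mt-Atp8 (0.11) over both sexes. With the share of counts as the level the sign changed for Ndufb7 (-0.0028), Ndufs3 (-0.0032), Sdha (-0.034) and Uqcrq (-0.031) for the slope on the mitochondrial level. With the level of the 6 mRNAs outside the copied stretch the sign changed for Ndufb7 (-0.0056), Ndufs3 (-0.0017), Sdha (-0.022) and Uqcrq (-0.044) for the slope on the mitochondrial level. With sex and genotype as terms the sign changed for Sdha (-0.044) for the slope on the mitochondrial level.

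Labels do not say that equal replicate numbers share a source. Deviations of same-numbered libraries correlated at 0.15 between male WT and male KO and at -0.14 between female WT and female KO, so the numbers are not shown to pair the libraries. Depth limits mt-Atp8, mt-Nd4l and Sdhd, where 3 counts equal 0.0444 to 0.0853 CPM of the unscaled totals.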
